A study of Mus musculus with 8 samples.

Results

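The genes described here encode the enzymes of glycolysis, gluconeogenesis and the pentose phosphate pathway, with one transporter each for glucose and lactate. They are 37 of the 37620 genes in each deposited table. They were chosen by name, from the textbook membership of these pathways, but with earlier results of these data known. RNA sequencing was done on 8 libraries of cells sorted from mouse small intestinal epithelium. Of these, 4 libraries (numbers 1, 3, 5 and 7) came from cells with an intermediate level of the surface glycoprotein CD24 (CD24Mid, which the submitters also call CD24low), and 4 (numbers 2, 4, 6 and 8) from cells without it (CD24Neg). In both groups cells that bound anti-CD45, a leukocyte antibody, or the fucose-binding lectin Ulex europaeus agglutinin I had been depleted. Neither group had a treatment, the series describes the replicates as biological, and the labels state neither strain nor age, nor how many animals stood behind a library. The comparison of the groups asks how these genes differ along intestinal differentiation, the subject of the series.

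Glycolysis splits glucose into pyruvate and yields ATP, and most of its steps run in either direction. Only a few steps are one-way, and there gluconeogenesis uses its own enzymes: glucose-6-phosphatase opposes hexokinase, fructose bisphosphatase opposes phosphofructokinase, and pyruvate carboxylase with PEP carboxykinase bypasses pyruvate kinase. The pentose phosphate pathway branches off at glucose 6-phosphate, its oxidative arm producing NADPH and its non-oxidative arm interconverting sugars for nucleotide synthesis. Many steps have several isozymes, encoded by separate genes and used in different tissues. The small intestine takes up dietary sugar at the villus. With liver and kidney it is among the few tissues known to express the glucose-6-phosphatase gene G6pc.

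The libraries held 11340782 to 18928233 reads unique to one gene. CD24Mid libraries had high levels of crypt transcripts, with Lgr5, Olfm4, Ascl2, Mki67 and Mcm3 summing to 3242 to 4520 CPM (gene-unique counts relative to library size, with the sizes scaled by TMM) against 115 to 397 in CD24Neg. Enterocyte transcripts (Apoa1, Apoa4, Lct, Alpi and Slc15a1) summed to 230 to 443 CPM in CD24Mid and 15690 to 28121 in CD24Neg. Transcripts of other cells also differed between the groups: 5 goblet cell markers summed to 3097 to 4452 CPM in CD24Mid and 9428 to 26443 in CD24Neg, 5 enteroendocrine markers to 253 to 751 and 61.4 to 94.7 CPM (4 of 5 called higher in CD24Mid), and 5 B and plasma cell markers to 393 to 1008 and 21.9 to 53.2 CPM. Summed Paneth, tuft, myeloid, stromal and muscle markers overlapped between the groups. The 5 T and NK cell markers summed to 3.26 to 11.2 CPM in CD24Mid and 26.4 to 481 in CD24Neg, where replicates 2 and 8 were highest. Mitochondrially encoded genes took 8.03% to 9.17% of the counts in CD24Mid and 27.7% to 37.0% in CD24Neg. The part of these differences in the results below was not tested beyond the fits without those libraries or genes. In sorted bulk RNA, fewer cells of a type and less RNA per cell cannot be told apart.

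Promoter sequences are shown for 5 genes on which the results turn: G6pc and Pck1, with the largest differences towards CD24Neg among the 37 genes, the regulatory enzyme gene Pfkfb4, and Hk2 and Pck2, with the largest differences towards CD24Mid. Each is the 250 bases before the transcription start in the RefSeq annotation of build GRCm38.p6, 5′ to 3′ on the gene's strand, so it lies outside the gene's exons and introns. Capitals mark, on either strand, the E-box CACGTG, the hypoxia response cores ACGTG (also part of the E-box) and, as its variant, GCGTG, the cAMP response core TGACG, the TATA box TATAAA and the GC box GGGCGG.
G6pc: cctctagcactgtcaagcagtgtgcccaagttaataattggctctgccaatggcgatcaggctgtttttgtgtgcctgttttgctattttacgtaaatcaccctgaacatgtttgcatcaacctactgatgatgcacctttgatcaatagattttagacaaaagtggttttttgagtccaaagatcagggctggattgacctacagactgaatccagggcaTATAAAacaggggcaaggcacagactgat
Pck1: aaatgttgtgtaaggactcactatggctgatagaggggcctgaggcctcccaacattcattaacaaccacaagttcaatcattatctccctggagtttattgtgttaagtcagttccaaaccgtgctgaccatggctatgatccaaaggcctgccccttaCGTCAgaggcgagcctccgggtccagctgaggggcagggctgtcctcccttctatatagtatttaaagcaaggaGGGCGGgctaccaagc
Pck2: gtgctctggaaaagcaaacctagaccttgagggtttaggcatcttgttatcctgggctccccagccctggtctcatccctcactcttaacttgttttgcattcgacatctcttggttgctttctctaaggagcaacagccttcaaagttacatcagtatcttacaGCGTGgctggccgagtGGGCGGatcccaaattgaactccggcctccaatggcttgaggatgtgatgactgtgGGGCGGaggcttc
Pfkfb4: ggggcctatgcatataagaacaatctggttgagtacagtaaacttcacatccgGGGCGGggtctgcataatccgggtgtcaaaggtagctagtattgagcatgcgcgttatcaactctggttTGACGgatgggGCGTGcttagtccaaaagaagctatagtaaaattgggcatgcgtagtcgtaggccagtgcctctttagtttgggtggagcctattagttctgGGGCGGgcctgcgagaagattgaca
Hk2: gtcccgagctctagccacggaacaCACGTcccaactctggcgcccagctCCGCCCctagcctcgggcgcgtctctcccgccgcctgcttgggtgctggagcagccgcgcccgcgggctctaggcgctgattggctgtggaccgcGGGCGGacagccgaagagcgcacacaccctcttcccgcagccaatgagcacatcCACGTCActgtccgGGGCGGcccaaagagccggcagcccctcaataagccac

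The G6pc window (ENSMUSG00000078650, chr11:101367466-101367715, plus strand) held the TATA box and none of the other letters searched. The Pck1 window (ENSMUSG00000027513, chr2:173152823-173153072, plus strand) held the cAMP core on its reverse strand and the GC box, and that of its mitochondrial counterpart Pck2 (ENSMUSG00000040618, chr14:55540016-55540265, plus strand) held the hypoxia core variant and the GC box. Pfkfb4 (ENSMUSG00000025648, chr9:108991652-108991901, plus strand) held that variant, the cAMP core and the GC box, and Hk2 (ENSMUSG00000000628, chr6:82774455-82774704, minus strand) the first hypoxia core, the cAMP core and the GC box. Some genes have several annotated starts, so the 37 genes, all of which matched the table, gave 54 windows. Of these, 13.0% held the E-box, against 6.02% of all 32851 windows. The core ACGTG stood in 33.3% against 16.6% and its variant GCGTG in 51.9% against 28.2%. The cAMP core stood in 20.4% against 17.8%, the GC box in 53.7% against 32.7%, and the TATA box in 3.70% against 12.4%, in G6pc and Pklr alone among the 37 genes. These are matches of letters, which vary with base composition, and are no evidence of binding.

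Most genes of the 3 pathways had more transcript in CD24Neg, the group with the enterocyte transcripts, and a few had more in CD24Mid. Of the 37 genes, 35 had enough reads to be tested, each with at least 10 reads in every library, and 27 passed an adjusted p of 0.05 in edgeR's quasi-likelihood test over 12840 genes. Of the 27, 23 were higher in CD24Neg, a direction in which 34.3% of all tested genes were called, and 4 were higher in CD24Mid, where 35.5% were called. In either direction 69.8% of all genes were called, so a call alone does not set these genes apart. Libraries of the groups did not overlap for 26 of the 35 genes (64.4% of all genes tested), 22 with CD24Neg above (31.4% of all genes) and 4 with CD24Mid above (33.0%). Past 2-fold, 16 genes were higher in CD24Neg (18.3% of all genes) and 2 in CD24Mid (20.4%). The median log2 fold change, CD24Mid over CD24Neg throughout, was -0.75 for the 35 genes and 0.02 for all genes tested.

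**Figure D1:**
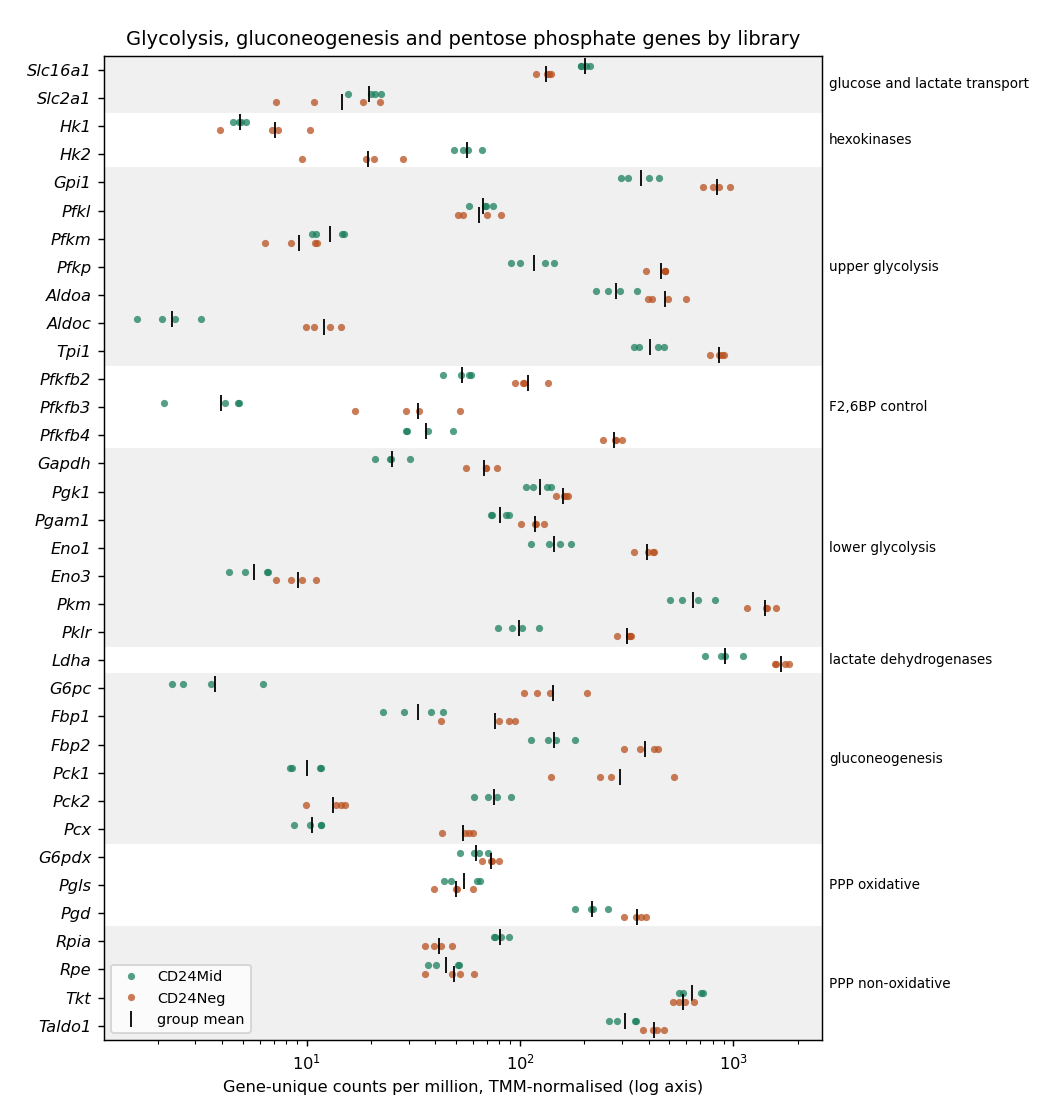
Gene-unique CPM in each library on a log axis, for the 35 tested genes grouped by role, with CD24Mid libraries in green, CD24Neg libraries in orange and a black tick at each group mean (n = 4 per group). F2,6BP is fructose 2,6-bisphosphate and PPP the pentose phosphate pathway; the groups stand farthest apart at G6pc (2.32 to 6.25 against 104 to 207 CPM) and Pck1 (8.32 to 11.7 against 139 to 528 CPM).

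These directions depend on how libraries are scaled. The TMM factors, which correct for abundant transcripts that take up reads, were 1.34 to 1.42 in CD24Mid libraries and 0.697 to 0.757 in CD24Neg libraries. Over all genes, the median log2 fold change was 0.02 with TMM, 0.24 with upper-quartile scaling and 0.96 with unscaled totals. Under upper-quartile scaling 20 of the genes were higher in CD24Neg and 6 in CD24Mid (27.3% and 43.6% of all genes, 70.9% either way), and with unscaled totals 11 and 14 (12.9% and 69.8%, 82.7% either way). Set against the median gene, the 35 genes stood in one place: the difference of medians was -0.770, -0.773 and -0.772 under the 3 scalings, with 26 genes below the all-gene median and 9 above it in each. A change of scaling moves all genes by nearly the same amount, so this sameness follows by construction and adds no support. Under TMM, upper-quartile, unscaled and DESeq2-type scaling alike, 11 genes passed the test towards CD24Neg: Pfkp, Pfkfb3, Pfkfb4, Aldoc, Gapdh, Eno1, Pklr, G6pc, Fbp2, Pck1 and Pcx. Hk2, Slc16a1, Pck2 and Rpia passed towards CD24Mid under all 4. The share of all genes that passed under all 4 was not computed, so these counts have no background beside them. For 10 genes the direction turned with the scaling, and each is named as such where it is described.

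**Figure D2:**
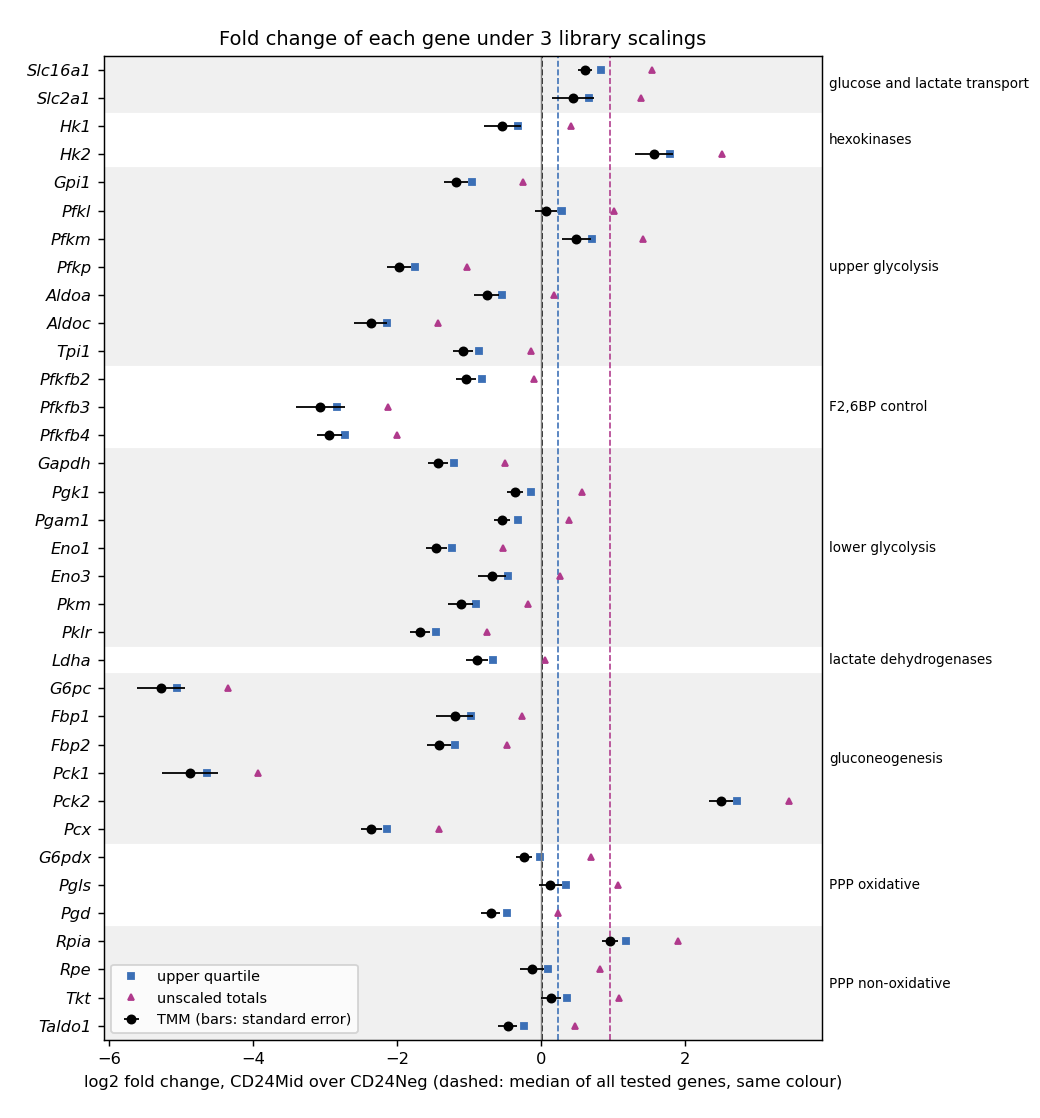
Log2 fold change of CD24Mid over CD24Neg for each tested gene under TMM (black, bars are standard errors), upper-quartile (blue) and unscaled (purple) library scaling, with dashed lines at the median of all tested genes under each. Every gene shifts with its dashed line; G6pc (-5.28) and Pck1 (-4.87) lie far to the left and Pck2 (2.51) and Hk2 (1.57) to the right under TMM.

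Gluconeogenesis held the genes with the largest differences, G6pc and Pck1, and its 6 genes did not go one way. Of these, 5 were called higher in CD24Neg and 1 in CD24Mid (34.3% and 35.5% of all genes were called in these directions). With unscaled totals 4 and 1 were (12.9% and 69.8% of all genes). G6pc, the catalytic subunit of glucose-6-phosphatase that releases free glucose, measured 6.25, 2.32, 3.56 and 2.61 CPM in CD24Mid replicates 1, 3, 5 and 7 and 104, 139, 207 and 120.0 CPM in CD24Neg replicates 2, 4, 6 and 8. The lowest CD24Neg library was far above the highest CD24Mid library, and G6pc was 38.8-fold higher in CD24Neg (log2 fold change -5.28 ± 0.34, SE; edgeR adjusted p = 3.4e-07). Pck1, the cytosolic PEP carboxykinase, measured 11.5, 8.32, 11.7 and 8.53 CPM in CD24Mid and 268, 237, 528 and 139 CPM in CD24Neg. It was 29.3-fold higher in CD24Neg (-4.87 ± 0.39, edgeR adjusted p = 1.2e-06). For both genes the CD24Neg libraries were more spread in CPM than the CD24Mid libraries, and CD24Neg replicate 6 was the highest.

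Pck2, which encodes the mitochondrial PEP carboxykinase, went the other way. It measured 78.2, 90.7, 70.4 and 60.9 CPM in CD24Mid and 13.7, 14.5, 9.95 and 15.1 CPM in CD24Neg, 5.68-fold higher in CD24Mid (2.51 ± 0.17, edgeR adjusted p = 4.2e-07). The libraries of the groups did not overlap. Within each library, Pck1 made up 11.6% ± 2.53 (SD, n = 4) of the 2 PEP carboxykinase transcripts per length in CD24Mid and 94.4% ± 2.90 in CD24Neg, so the leading isozyme was a different one in each group. The share ran from 8.05% to 13.8% and from 90.9% to 98.0% and does not depend on library scaling. By an exact two-sided permutation test of the library labels p was 0.0286, the smallest this design allows, and 0.04 after Benjamini-Hochberg adjustment over the 14 shares tested. This test treats the libraries as unpaired: if neighbouring replicate numbers were pairs, which the labels do not state, an exact test over the 4 pairs could not go below 0.125. The difference had the same direction in 4 of 4 pairs (-86.0 to -79.3 points), which any pairing would give, since the groups do not overlap.

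Pyruvate carboxylase (Pcx), the mitochondrial enzyme that makes oxaloacetate from pyruvate, measured 11.7, 8.69, 10.3 and 11.6 CPM in CD24Mid and 43.2, 57.8, 55.3 and 60.4 CPM in CD24Neg. With little spread in either group it was 5.13-fold higher in CD24Neg (-2.36 ± 0.14, edgeR adjusted p = 2.5e-07). Fructose bisphosphatase has a liver isozyme, Fbp1, and a muscle isozyme, Fbp2, and the muscle form was the main transcript in both groups. Fbp2 measured 181, 148, 135 and 113 CPM in CD24Mid and 424, 366, 442 and 308 CPM in CD24Neg (-1.42 ± 0.17, edgeR adjusted p = 2.2e-05), with no overlap. Fbp1 measured 43.4, 38.3, 28.4 and 22.8 CPM in CD24Mid and 88.7, 94.4, 79.2 and 42.7 CPM in CD24Neg (-1.20 ± 0.26, edgeR adjusted p = 0.0017). Fbp1 was the one called gene whose groups overlapped, CD24Neg replicate 8 lying just below CD24Mid replicate 1, and its call was not kept with unscaled totals (-0.27, edgeR adjusted p = 0.35). Fbp1 held 16.8% ± 1.57 of the 2 transcripts per length in CD24Mid and 14.8% ± 3.16 in CD24Neg, a share that did not pass (exact permutation p = 0.286, adjusted 0.333). Markers of muscle (Myh11, Des, Ckm, Acta1 and Tnnt3) summed to 3.5 to 6.42 CPM in CD24Mid and 4.53 to 11.5 CPM in CD24Neg. Only 1 of them had enough reads to be tested. Whether muscle cells had a part in the Fbp2 counts was not tested.

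Among the hexokinases, which phosphorylate glucose on entry, Hk2 was higher in CD24Mid. It measured 48.7, 57.0, 53.8 and 66.6 CPM in CD24Mid and 28.1, 20.7, 9.44 and 18.9 CPM in CD24Neg, a 2.97-fold difference (1.57 ± 0.26, edgeR adjusted p = 0.00027) with no overlap. Hk1, the form found in most tissues, measured 4.90, 4.79, 4.52 and 5.19 CPM in CD24Mid and 10.4, 7.29, 3.92 and 6.84 CPM in CD24Neg. Its groups overlapped and the difference did not pass (-0.54 ± 0.26, edgeR adjusted p = 0.083). Leaving out CD24Neg replicate 6, the lowest, gave -0.69 and an edgeR adjusted p of 0.0094, and leaving out replicates 2 and 8, with the most T and NK cell transcripts, gave -0.17 and 0.59. With unscaled totals its direction turned. Hk3 was not tested, with 16 reads over the CD24Mid libraries and 10 over the CD24Neg libraries, a ratio of 0.693 (95% exact interval 0.296 to 1.71, counting error only) in normalised reads.

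Hk2 made up 89.0% ± 0.48 of the Hk1, Hk2 and Hk3 transcripts per length in CD24Mid and 64.0% ± 7.49 in CD24Neg (exact permutation p = 0.0286, adjusted 0.04). The 4 CD24Mid libraries lay between 88.5% and 89.6% and the CD24Neg libraries between 56.7% and 74.3%. Hkdc1, a further hexokinase-like gene that was not in the chosen set, changed this picture when it was added, a choice made after the values were seen. Hkdc1 measured 75.7 to 184 CPM in CD24Mid and 620 to 752 in CD24Neg (-2.54 ± 0.25, edgeR adjusted p = 5.5e-06). It made up 72.6% ± 6.90 of these 4 transcripts per length in CD24Mid and 97.0% ± 1.28 in CD24Neg, and Hk2 24.4% ± 6.25 and 1.98% ± 1.04. The summed level of Hk1 to Hk3 was 0.558 times as high in CD24Neg as in CD24Mid, and that of all 4 genes 4.63 times as high.

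Upper glycolysis, from glucose 6-phosphate to the triose phosphates, had 5 of its 7 genes higher in CD24Neg, none higher in CD24Mid and 2 that did not pass (34.3% and 35.5% of all genes were called in these directions). With unscaled totals 2 were called in each direction (12.9% of all genes towards CD24Neg, 69.8% towards CD24Mid). The muscle, liver and platelet forms of phosphofructokinase-1, the committing enzyme of glycolysis, behaved differently. Pfkp, the platelet form, measured 144, 90.8, 100.1 and 131 CPM in CD24Mid and 479.9, 391, 478 and 479 CPM in CD24Neg, 3.92-fold higher in CD24Neg (-1.97 ± 0.16, edgeR adjusted p = 1.7e-06). Pfkl, the liver form, measured 57.4 to 74.4 CPM in CD24Mid and 51.2 to 81.4 CPM in CD24Neg and did not pass (0.07 ± 0.15, edgeR adjusted p = 0.69), though it passed towards CD24Mid with unscaled totals (edgeR adjusted p = 0.00018). Pfkm, the muscle form, lay at 10.6 to 15 CPM in CD24Mid and 6.39 to 11.1 CPM in CD24Neg, close to the threshold (0.49 ± 0.20, edgeR adjusted p = 0.050). It passed when CD24Mid replicate 5 or 7 or CD24Neg replicate 2 or 4 was left out (0.55 to 0.64), with upper-quartile scaling (0.71, edgeR adjusted p = 0.0095), DESeq2-type scaling (0.48, edgeR adjusted p = 0.0498) and unscaled totals (1.42, edgeR adjusted p = 6.0e-05). With a block for neighbouring replicate numbers it passed too (0.49, edgeR adjusted p = 0.0044). The share of Pfkl was 27.4% ± 4.70 of the phosphofructokinase transcripts per length in CD24Mid and 8.51% ± 2.41 in CD24Neg (exact permutation p = 0.0286, adjusted 0.04), while Pfkp took 65.9% ± 5.77 and 89.9% ± 2.82. Pfkp was therefore the main form in both groups.

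**Figure D3:**
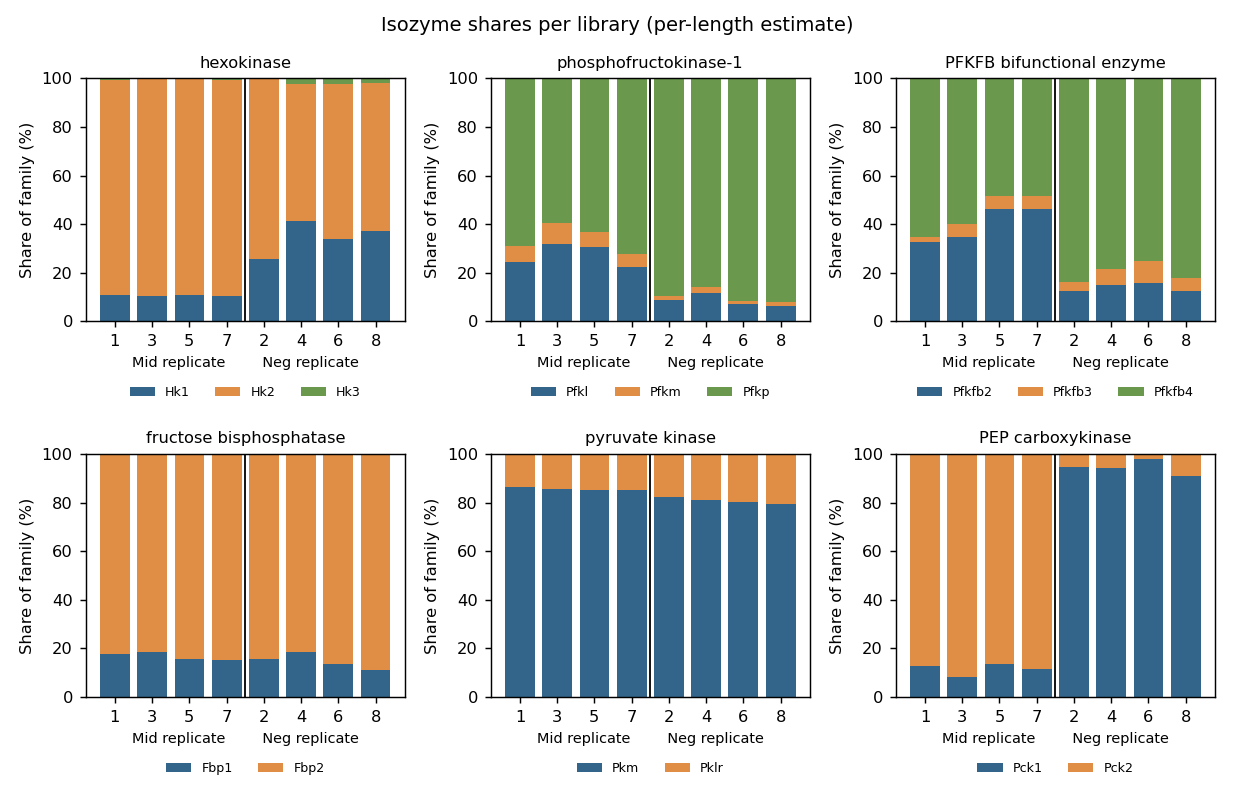
Share of each isozyme in its family, in percent of transcripts per length, as stacked bars for each library, the 4 CD24Mid libraries left of the black line and the 4 CD24Neg libraries right of it. The PEP carboxykinase panel changes from 8.05% to 13.8% Pck1 in CD24Mid to 90.9% to 98.0% in CD24Neg, and Pfkp takes a larger part of its family in CD24Neg.

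Gpi1, which interconverts glucose 6-phosphate and fructose 6-phosphate, measured 450.2, 402, 296 and 322 CPM in CD24Mid and 959.5, 854, 804 and 718 CPM in CD24Neg (-1.18 ± 0.16, edgeR adjusted p = 6.8e-05). Tpi1, the triose phosphate isomerase, measured 342 to 472 CPM and 781 to 907 CPM (-1.08 ± 0.14, edgeR adjusted p = 4.1e-05). Neither overlapped, but with unscaled totals neither passed (-0.24 and -0.15, edgeR adjusted p = 0.14 and 0.30). Aldolase A (Aldoa), which cleaves fructose 1,6-bisphosphate, measured 226 to 352 CPM in CD24Mid and 399 to 599.8 CPM in CD24Neg (-0.75 ± 0.17, edgeR adjusted p = 0.0026), and its direction turned with unscaled totals (0.18). Aldoc, the brain form, was low, at 1.59 to 3.20 CPM in CD24Mid and 9.94 to 14.5 CPM in CD24Neg, a 5.16-fold difference (-2.37 ± 0.23, edgeR adjusted p = 5.3e-06). Between Aldoa and Aldoc, Aldoa held 99.3% ± 0.099 of the transcripts per length in CD24Mid and 97.8% ± 0.28 in CD24Neg (exact permutation p = 0.0286, adjusted 0.04).

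The bifunctional PFKFB enzymes make and break down fructose 2,6-bisphosphate, the activator of phosphofructokinase and inhibitor of fructose bisphosphatase. All 3 in the chosen set were called higher in CD24Neg (34.3% of all genes were called in this direction). Pfkfb4 measured 48.6, 37.0, 29.3 and 29.5 CPM in CD24Mid and 282, 246, 279 and 301 CPM in CD24Neg, 7.68-fold higher in CD24Neg (-2.94 ± 0.17, edgeR adjusted p = 2.3e-07). Pfkfb3, the form with the highest kinase activity, measured 2.13, 4.74, 4.14 and 4.79 CPM and 16.8, 33.6, 52.4 and 29.3 CPM (-3.07 ± 0.35, edgeR adjusted p = 1.5e-05). Pfkfb2, the heart form, had a smaller difference, at 43.3 to 58.8 CPM and 94.9 to 136 CPM (-1.04 ± 0.14, edgeR adjusted p = 5.9e-05). None of the 3 overlapped, but Pfkfb2 did not pass with unscaled totals (-0.10, edgeR adjusted p = 0.54). Per length, Pfkfb4 took 55.5% ± 8.56 of the 3 transcripts in CD24Mid and 79.9% ± 3.92 in CD24Neg, and Pfkfb2 39.9% ± 7.29 and 13.8% ± 1.71, values given without a test. The share of Pfkfb3, which was tested, was 4.64% ± 1.79 and 6.28% ± 2.25 and did not pass (exact permutation p = 0.4, adjusted 0.4).

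Lower glycolysis, which takes the triose phosphates to pyruvate and yields the ATP of the pathway, had all 7 genes called higher in CD24Neg (34.3% of all genes). Under upper-quartile scaling 5 were (27.3% of all genes), and with unscaled totals 3 were called towards CD24Neg and 2 towards CD24Mid (12.9% and 69.8% of all genes). For 5 of them (Gapdh, Pgk1, Pgam1, Eno1 and Pklr) gene-unique reads were at most 86.4% of the estimated reads in any library, the rest being reads that also fit other genes, so both values are given. Gapdh, glyceraldehyde 3-phosphate dehydrogenase, kept only 3.30% to 6.65% of its estimated reads as unique. Its unique reads lay at 30.5, 24.4, 21.0 and 24.9 CPM in CD24Mid and 78.0, 68.9, 69.2 and 56.0 CPM in CD24Neg (-1.43 ± 0.14, edgeR adjusted p = 5.1e-06). With shared reads the difference was larger (-2.03 ± 0.21, edgeR adjusted p = 1.2e-05), and the level per length was 465 ± 130.5 in CD24Mid and 1997 ± 224 fragments per kilobase (scaled like CPM) in CD24Neg. Both measures placed all CD24Neg libraries above all CD24Mid libraries.

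Pgk1, the first enzyme to make ATP, had the smallest difference of this segment. Its unique reads lay at 106 to 139 CPM and 147 to 167 CPM (-0.37 ± 0.11, edgeR adjusted p = 0.012), but with shared reads it did not pass (-0.26 ± 0.12, edgeR adjusted p = 0.083), and its direction turned with unscaled totals (0.57, edgeR adjusted p = 0.00050). Pgam1, phosphoglycerate mutase, lay at 72.9 to 88.3 CPM and 101 to 129.7 CPM (-0.54 ± 0.11, edgeR adjusted p = 0.0013; with shared reads -0.51) and turned likewise (0.39). Eno1, the ubiquitous enolase, measured 173, 154, 112 and 136 CPM in CD24Mid and 397, 418, 427 and 341 CPM in CD24Neg (-1.46 ± 0.15, edgeR adjusted p = 6.7e-06; with shared reads -1.47) and passed under every scaling. Eno3, the muscle enolase, was low, at 4.30 to 6.59 CPM and 7.19 to 11 CPM (-0.68 ± 0.20, edgeR adjusted p = 0.010). It did not pass with upper-quartile scaling or without CD24Neg replicates 2 and 8, and turned with unscaled totals (0.26). Eno1 held 97.9% ± 0.24 of the 2 enolase transcripts per length in CD24Mid and 98.7% ± 0.37 in CD24Neg (exact permutation p = 0.0286, adjusted 0.04).

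Both pyruvate kinases, which make pyruvate and ATP, were higher in CD24Neg. Pkm, whose splice forms M1 and M2 the gene-level tables do not separate, measured 824, 681, 504 and 572 CPM in CD24Mid and 1586, 1444, 1421 and 1154 CPM in CD24Neg (-1.12 ± 0.18, edgeR adjusted p = 0.00020). Pklr, the liver and red cell form, measured 123, 102, 78.3 and 91.5 CPM and 327, 331, 323 and 284 CPM (-1.68 ± 0.14, edgeR adjusted p = 2.0e-06; with shared reads -1.74). Neither gene overlapped, but Pkm did not pass with unscaled totals (-0.18, edgeR adjusted p = 0.31). Pkm remained the main form, at 85.6% ± 0.51 of the 2 transcripts per length in CD24Mid and 80.8% ± 1.39 in CD24Neg, a difference that passed (exact permutation p = 0.0286, adjusted 0.04). The 4 matched erythroid markers looked for beside Pklr summed to at most 0.110 CPM, and whether red cells had a part in the Pklr counts was not tested.

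Lactate dehydrogenase A (Ldha), which turns pyruvate into lactate, measured 1113, 909, 739.7 and 878 CPM in CD24Mid and 1823, 1752, 1563 and 1582 CPM in CD24Neg (-0.88 ± 0.15, edgeR adjusted p = 0.00037). There was no overlap, but with unscaled totals the direction turned and the difference was near 0 (0.05, edgeR adjusted p = 0.72). Ldhb, the heart form, was nearly absent from both groups, with 45 reads in CD24Mid and 8 in CD24Neg, a ratio of 2.44 (95% exact interval 1.14 to 5.98, counting error only) in normalised reads. Ldha held 99.93% ± 0.026 of the 2 transcripts per length in CD24Mid and 99.98% ± 0.016 in CD24Neg (exact permutation p = 0.0286, adjusted 0.04), a difference of 0.051 percentage points. Slc16a1, the monocarboxylate transporter MCT1 that carries lactate and other short acids, was higher in CD24Mid. It measured 193, 193, 204 and 212 CPM in CD24Mid and 118, 136, 139 and 133 CPM in CD24Neg, a 1.52-fold difference (0.61 ± 0.10, edgeR adjusted p = 0.00021). Slc16a3 (MCT4), a further lactate transporter outside the chosen set and named after its values were seen, lay the other way, at 1.61 to 2.13 CPM in CD24Mid and 23.6 to 35.2 CPM in CD24Neg (-3.98 ± 0.17, edgeR adjusted p = 9.3e-08). Slc2a1, the widely expressed glucose transporter GLUT1, measured 19.97, 22.2, 15.5 and 20.8 CPM and 21.9, 18.4, 7.19 and 10.8 CPM. Its groups overlapped and it did not pass (0.45 ± 0.29, edgeR adjusted p = 0.19), though it did without CD24Neg replicate 2, the highest of its group (0.75, edgeR adjusted p = 0.034), with unscaled totals (1.39, edgeR adjusted p = 0.0013) and with a block for neighbouring replicate numbers (0.53, edgeR adjusted p = 0.040).

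The opposing enzymes of the one-way steps were compared within each library, which removes library scaling. At the first step G6pc made up 11% ± 4.72 of the transcripts per length of G6pc and Hk1 to Hk3 in CD24Mid and 88.6% ± 7.29 in CD24Neg (exact permutation p = 0.0286, adjusted 0.04). The libraries ran from 7.33% to 17.4% and from 78.8% to 96.4%. Counting Hkdc1 as a hexokinase lowered the share to 3.06% ± 0.67 and 21.3% ± 6.90, still without overlap, so the direction held but the side with the majority in CD24Neg did not. At the second step Fbp1 and Fbp2 made up 67.3% ± 4.5 of the transcripts per length with the phosphofructokinases in CD24Mid and 63.8% ± 4.96 in CD24Neg, a difference of 3.48 percentage points that did not pass (exact permutation p = 0.343, adjusted 0.369). At the third step Pck1 and Pck2 made up 9.41% ± 1.60 against the pyruvate kinases in CD24Mid and 12.8% ± 5.42 in CD24Neg (exact permutation p = 0.286, adjusted 0.333), with CD24Neg replicate 6 at 20.7% and the other CD24Neg libraries at 8.45% to 11.2%. Of the 3 steps as compared here, the transcript balance thus passed the test only for G6pc against the hexokinases. The share against the pyruvate kinases did not count Pcx, which was called higher in CD24Neg (-2.36). It also summed Pck1 and Pck2, which went opposite ways. Within it Pck1 made up 1.09% ± 0.32 in CD24Mid and 12.2% ± 5.56 in CD24Neg. Pck2 made up 8.32% ± 1.43 and 0.603% ± 0.148, values given without a test. A p above the threshold does not show that the balance at the other steps was equal.

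**Figure D4:**
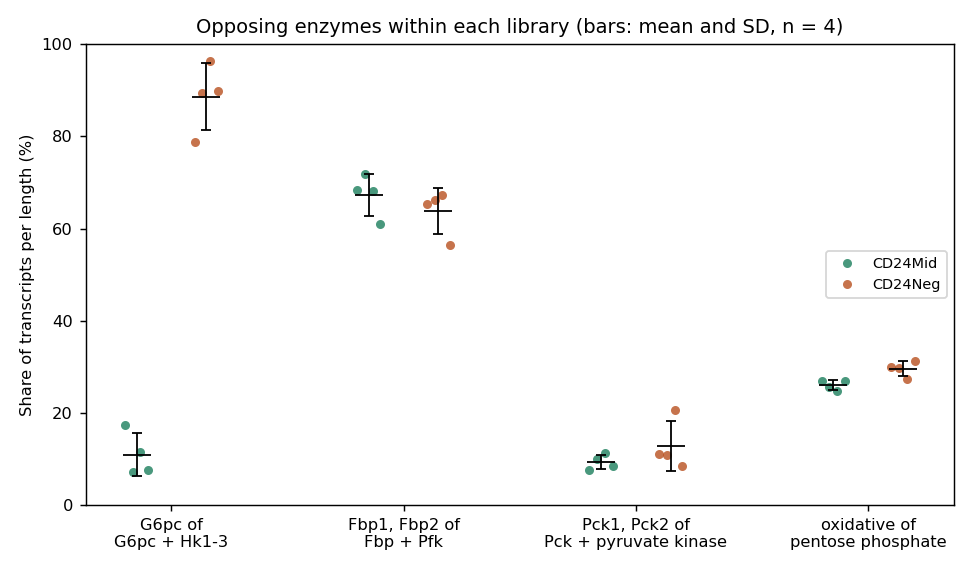
Share of the gluconeogenic enzymes among the transcripts per length of the genes compared at each one-way step, for each library (points). The share of the oxidative enzymes among the pentose phosphate genes is also shown, with mean and SD throughout (bars, n = 4). The first step sets G6pc against Hk1 to Hk3, without Hkdc1. Counting Hkdc1 gave a G6pc share of 3.06% ± 0.67 in CD24Mid and 21.3% ± 6.90 in CD24Neg. The share of Pck1 and Pck2 against the pyruvate kinases does not count Pcx. The groups are fully apart at the first step (7.33% to 17.4% against 78.8% to 96.4%), overlap at the other two, and are close but separate for the pentose phosphate pathway.

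Summed per step, transcript levels differed by unequal amounts at 9 steps between glucose 6-phosphate and lactate, with aldolase not summed. On the normalised scale per length, the ratio of CD24Neg to CD24Mid was 2.24 for the isomerase, 3.01 for phosphofructokinase and 2.12 for triose phosphate isomerase. It was 4.29 for Gapdh, 1.19 for Pgk1, 1.43 for Pgam1, 2.76 for the enolases, 2.29 for the pyruvate kinases and 1.83 for lactate dehydrogenase. The ratios are read against each other, since a change of scaling moves all of them by nearly the same factor. Pgk1 and Pgam1, which follow directly after Gapdh, had the lowest ratios of these 9 steps, and Gapdh the highest, and these 3 genes are among the 5 with the most shared reads. On unique reads Gapdh was 2.70-fold higher in CD24Neg, below Eno1 (2.75-fold) and Pfkp (3.92-fold), so its place as the highest rests on shared reads. The hexokinase step, upstream of these, lay outside their range with either choice of genes: its ratio was 0.558 for Hk1 to Hk3 and 4.63 with Hkdc1.

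Of the 7 pentose phosphate genes, 2 were called higher in CD24Neg, 1 higher in CD24Mid and 4 did not pass (34.3% and 35.5% of all genes were called in these directions). Under upper-quartile scaling 1 was called towards CD24Neg and 2 towards CD24Mid (27.3% and 43.6% of all genes). With unscaled totals 6 were called towards CD24Mid and none towards CD24Neg (69.8% and 12.9%), so the direction of this group rests on the scaling. In the oxidative arm, Pgd, which makes NADPH from 6-phosphogluconate, was higher in CD24Neg, at 181 to 257 CPM in CD24Mid and 308 to 389 CPM in CD24Neg (-0.70 ± 0.13, edgeR adjusted p = 0.00066; turned to 0.24 with unscaled totals). G6pdx, the X-linked entry enzyme, lay at 52.4 to 70.8 CPM and 66.4 to 79.9 CPM, with overlap, and did not pass (-0.24 ± 0.11, edgeR adjusted p = 0.080). It passed without CD24Mid replicate 1 (-0.31, edgeR adjusted p = 0.032) or with a block for neighbouring replicate numbers (-0.25, edgeR adjusted p = 0.029), and passed in the opposite direction with unscaled totals (0.70, edgeR adjusted p = 0.00011). Pgls, the lactonase between them, did not pass, at 43.7 to 64.6 CPM and 39.6 to 59.9 CPM (0.13 ± 0.16, edgeR adjusted p = 0.49), though it passed towards CD24Mid with unscaled totals (1.07, edgeR adjusted p = 6.4e-05).

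In the non-oxidative arm, Rpia, the isomerase that makes ribose 5-phosphate for nucleotides, was higher in CD24Mid. It measured 88.6, 76.6, 81.5 and 75.8 CPM in CD24Mid and 47.9, 39.4, 35.9 and 42.5 CPM in CD24Neg, a 1.95-fold difference without overlap (0.96 ± 0.11, edgeR adjusted p = 1.9e-05). Rpe, the epimerase at the same branch, did not pass, at 37.1 to 51.5 CPM and 35.7 to 60.5 CPM (-0.13 ± 0.17, edgeR adjusted p = 0.51), and its direction turned with upper-quartile scaling, unscaled totals or without CD24Neg replicate 6. Transketolase (Tkt) was abundant in both groups, at 556 to 724 CPM and 523 to 656 CPM, and did not pass (0.14 ± 0.14, edgeR adjusted p = 0.38). It passed towards CD24Mid with upper-quartile scaling (0.36, edgeR adjusted p = 0.037) and with unscaled totals (1.08, edgeR adjusted p = 1.2e-05). Transaldolase (Taldo1) was higher in CD24Neg, at 261 to 349.6 CPM and 375 to 474 CPM (-0.46 ± 0.13, edgeR adjusted p = 0.0094), and passed in the opposite direction with unscaled totals (0.48, edgeR adjusted p = 0.0041). The oxidative enzymes together made up 26.1% ± 1.0 of the pentose phosphate transcripts per length in CD24Mid and 29.6% ± 1.57 in CD24Neg (exact permutation p = 0.0286, adjusted 0.04). Within this sum the share of Pgd was 13.9% ± 1.11 and 19.3% ± 1.08, that of G6pdx 3.28% ± 0.14 and 3.31% ± 0.15, and that of Rpia 6.36% ± 0.68 and 2.71% ± 0.28, values given without a test.

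Levels per length can be set beside each other between genes. In CD24Mid the highest of the 37 genes were Ldha (747 ± 128 fragments per kilobase, scaled like CPM), Gapdh (465 ± 130.5) and Pkm (367 ± 80.8), followed by Taldo1 (335 ± 48.0) and Tpi1 (331 ± 51.6), which differ by less than their spread. In CD24Neg they were Gapdh (1997 ± 224), Ldha (1367 ± 102) and Pkm (792 ± 105), followed by Tpi1 (702 ± 49.7) and Eno1 (684 ± 72.8), again within each other's spread. These levels include shared reads: only 3.30% to 6.65% of the estimated Gapdh reads were unique, and 35.6% to 37.6% of those of Eno1. The place of Gapdh in both groups therefore rests on shared reads. G6pc was among the lowest tested genes in CD24Mid, at 1.89 ± 0.93, and stood at 72.9 ± 23.6 in CD24Neg. Hk2, at 13.4 ± 0.89 in CD24Mid, and Pck2, at 38.7 ± 6.28, were modest transcripts by this measure.

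Of 41 further genes of sugar metabolism, transport and pyruvate entry, 32 were tested, of which 20 were higher in CD24Neg, 5 higher in CD24Mid and 7 did not pass, with a median log2 fold change of -1.10. Of all genes, 34.3% were called towards CD24Neg and 35.5% towards CD24Mid. The sugar transporters Slc2a2 (GLUT2), Slc2a5 and Slc5a1 were far higher in CD24Neg: Slc2a2 by 41.0-fold (-5.36 ± 0.34, edgeR adjusted p = 3.3e-07), the fructose transporter Slc2a5 by 15.2-fold (-3.93 ± 0.28, edgeR adjusted p = 6.0e-07) and the sodium-glucose transporter Slc5a1 by 8.57-fold (-3.10 ± 0.23, edgeR adjusted p = 9.0e-07). Slc2a2 lay at 6.04 to 13.6 CPM in CD24Mid libraries and 216 to 477 CPM in CD24Neg libraries, with no overlap. Enzymes of fructose, glycerol phosphate and sedoheptulose metabolism were also higher in CD24Neg, with ketohexokinase Khk (-2.28 ± 0.22), the glycerol 3-phosphate dehydrogenase Gpd1 (-2.34 ± 0.20) and the sedoheptulose kinase Shpk (-1.90 ± 0.16) all called. Higher in CD24Mid were Adpgk, an ADP-dependent kinase of glucose, by 4.59-fold (2.20 ± 0.17, edgeR adjusted p = 9.9e-07), G6pc3, the ubiquitous glucose-6-phosphatase, by 1.97-fold (0.98 ± 0.16, edgeR adjusted p = 0.00029) and the pyruvate dehydrogenase kinase Pdk1 by 1.42-fold (0.51 ± 0.10, edgeR adjusted p = 0.00096). With unscaled totals 13 were higher in CD24Neg and 10 in CD24Mid (12.9% and 69.8% of all genes), and the genes named here kept their direction. G6pc and G6pc3 thus lay in opposite directions, as Pck1 and Pck2 did.

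Among 18 regulators known to act on these genes, 4 were higher in CD24Mid, 8 higher in CD24Neg and 6 did not pass, with a median log2 fold change of -0.18. Of all genes, 35.5% and 34.3% were called in these directions and 69.8% in either, close to the share of the regulators. Myc, a transcription factor of dividing cells with glycolytic targets, was 11-fold higher in CD24Mid (3.46 ± 0.20, edgeR adjusted p = 1.9e-07), at 65.7 to 87.5 CPM against 5.30 to 9.94 CPM. Mlxip, a glucose-sensing factor, was also higher in CD24Mid (1.27 ± 0.10), while its relative Mlxipl (ChREBP) was higher in CD24Neg (-0.98 ± 0.13), a call not kept with unscaled totals (-0.04, edgeR adjusted p = 0.77). Hnf4a (0.49 ± 0.11) and the prolyl hydroxylase Egln1 (0.33 ± 0.11) were the other 2 called higher in CD24Mid. In CD24Neg the largest difference was that of Egln3, a further prolyl hydroxylase, at 0.744 to 1.36 CPM in CD24Mid and 20.1 to 35.8 CPM in CD24Neg (-4.84 ± 0.26, edgeR adjusted p = 1.6e-07). It lies below the mean log2 CPM of 4 set for naming and was named after its values were seen. Next were those of Creb3l3, a liver and gut transcription factor (-4.14 ± 0.43), and of the coactivator Ppargc1a (-2.20 ± 0.18), known for driving gluconeogenic genes. Esrra (-1.56 ± 0.13), Epas1 (-1.39 ± 0.24) and Nfe2l2 (-1.21 ± 0.14) were called in the same direction, but with unscaled totals Epas1 (edgeR adjusted p = 0.11) and Nfe2l2 (0.097) did not pass. Hif1a, the oxygen-regulated activator of glycolytic genes, did not pass (0.03 ± 0.19, edgeR adjusted p = 0.89), at 38.7 to 61.3 CPM and 33.8 to 59.5 CPM. With unscaled totals 11 regulators were higher in CD24Mid and 4 in CD24Neg (69.8% and 12.9% of all genes). Among the 11 was Hif1a (0.97, edgeR adjusted p = 0.0018), which lay at the shifted median of all genes.

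The counts of called genes were recomputed without the libraries and transcripts that stood apart, alternatives of which the first was chosen after seeing the data. Without CD24Neg replicates 2 and 8, 22 of the genes were called towards CD24Neg and 4 towards CD24Mid, against 30.0% and 33.7% of all genes (63.7% either way). Without the mitochondrially encoded genes 23 were called towards CD24Neg and 5 towards CD24Mid (33.3% and 36.1% of all genes, 69.4% either way). The counts were 22 and 4 on estimated reads that include shared ones (68.5% of all genes called) and 23 and 5 by DESeq2 (70.2%). With neighbouring replicate numbers as a block, also chosen after seeing the data, they were 24 and 6, against 37.2% and 38.2% of all genes (75.4% either way). G6pc, Pck1, Pck2, Hk2 and Pfkfb4 were called in the same direction in each of these. The Pck1 share of PEP carboxykinase transcripts differed by -84.5 percentage points (CD24Mid minus CD24Neg) without replicates 2 and 8 and by -82.8 points with them.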

How the data were processed

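Total RNA of sorted cells was made into TruSeq libraries, per the labels' protocols, and Bowtie 0.12.8 was the aligner and NCBIM37 the genome, going by the submitters' processing notes. The table and column names are those of MMSEQ, and no source used here gives its version, annotation or strand setting. The deposited tables gave, per gene, a count of fragments unique to that gene, an effective length, and a log estimate that includes shared reads. The authors' estimate was read as a natural log of fragments per kilobase and mapped fragment, since the natural log of unique counts rose on it with a slope of 0.965 to 0.981. Unique reads were 89.1% to 92.6% of the 12401668 to 20445879 mapped fragments. A library with no read of a gene allowed up to 0.121 to 0.145 CPM in CD24Mid and 0.218 to 0.380 in CD24Neg (3 counts, counting error only).

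The deposited counts went into edgeR 4.0.16 (R 4.3.3) with TMM factors, its filterByExpr filter and group as the one term. Its robust quasi-likelihood test was adjusted after Benjamini and Hochberg across the 12840 genes kept, and 0.05 was the threshold. Isozyme shares came from the per-length estimates and were compared by exact two-sided permutation tests (SciPy 1.17.1). P-values measure the spread between these 4 libraries a group. The groups share no replicate numbers, but libraries with neighbouring numbers (1 and 2, 3 and 4, 5 and 6, 7 and 8) deviated together from their group means over the genes kept (correlations across genes of log2(CPM + 0.5), 0.36 to 0.44), and a fit with these pairs as a block was added after seeing the data. Alternatives used DESeq2 1.42.0, limma 3.58.1, other scalings and filters, and fewer libraries. Genes were named by role for the 37 members, and among the other lists by passing the test with a mean log2 CPM of 4 or more, up to 8 per direction, with Hkdc1, Slc5a1, Slc2a2 and Slc2a5 always named. Results for some other genes of these lists, 1 share among them, are not reported here. The members and all lists were chosen with earlier results of these data known. Promoters came from RefSeq (GRCm38.p6), a later build than that of the files, whose coordinates were not used. The cAMP core, the TATA box and the GC box were added to the motifs after the other 3. Names were found for 32897 of 37620 gene IDs, and Hbb-b1 was not matched.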

Additional observations from a re-analysis of the deposited data

Results flagged for a closer look

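Of 102 groups of 4 libraries examined, 3 had 1 library far from the other 3, fewer than the 1 in 20 that chance alone would give. Pfkp measured 391.3 CPM in CD24Neg replicate 4, against 478.4 to 479.9 CPM in the other CD24Neg libraries, and every CD24Neg library stayed above the CD24Mid libraries. The share of Pfkfb3 among the PFKFB transcripts was 1.96% in CD24Mid replicate 1, against 5.41% to 5.65% in the other CD24Mid libraries. The share of Fbp1 and Fbp2 against phosphofructokinase was 56.5% in CD24Neg replicate 8, against 65.4% to 67.2% in the other CD24Neg libraries.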

How the results depend on the processing

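With unscaled totals, 14 of the 35 genes passed towards CD24Mid and 11 towards CD24Neg (69.8% and 12.9% of all genes). Limma on the deposited log estimates, which leaves totals unscaled, gave the same counts of 14 and 11. With upper-quartile scaling 6 passed towards CD24Mid and 20 towards CD24Neg (43.6% and 27.3% of all genes). The count towards CD24Neg moved less in further settings. The counts were 4 to 6 in CD24Mid and 23 to 24 in CD24Neg when single libraries were left out. They were 5 and 22 without a filter on low counts, 4 and 22 with shared reads, and 5 and 23 with DESeq2. Of all genes, 68.5% were called in either direction with shared reads and 70.2% with DESeq2. Shares of all genes for limma, for single libraries left out and without the filter are not given here. Reversed log2 fold changes were, with unscaled totals and then with limma, 0.41 and 0.22 for Hk1, 0.18 and 0.19 for Aldoa, 0.57 and 0.66 for Pgk1, 0.39 and 0.40 for Pgam1, 0.26 and 0.25 for Eno3, 0.053 and 0.027 for Ldha, 0.70 and 0.67 for G6pdx, 0.24 and 0.21 for Pgd, 0.82 and 0.80 for Rpe, and 0.48 and 0.45 for Taldo1. Rpe also reversed with upper-quartile scaling (0.10) and without CD24Neg replicate 6 (0.048; the range with single libraries left out was -0.21 to 0.048). All genes shift with these scalings, by construction. No share changed direction or its side of the threshold when unique counts per length were used. With 1 library left out the exact test cannot go below 0.0571, so for the shares that setting gave values only: the Pck1 share (CD24Mid minus CD24Neg) was then -84.0 to -81.6 points and the G6pc share -80.9 to -75 points. The labels do not pair the libraries, but each library correlated best with the one of the neighbouring number, at 0.36 to 0.44 against at most 0.085 with others of the opposite group. With these pairs as a replicate block, chosen after seeing the data, 24 genes passed towards CD24Neg and 6 towards CD24Mid (37.2% and 38.2% of all genes): Pfkm, Slc2a1 and G6pdx were gained, and no other call among the 35 changed. A paired exact test of a share cannot go below 0.125, and 12 of the 14 shares had one direction in all 4 pairs. Where the groups do not overlap in a share, any pairing would give this. Reads limit Hk3 and Ldhb, and shared reads limit Gapdh, Pgk1, Pgam1, Eno1 and Pklr.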
